A study of Homo sapiens with 2 samples.

Results

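Megabase hotspots of accessible chromatin are the 1-Mb bins of the genome that hold an unusually large number of separately listed accessible regions. Every region on chromosomes 1 to 22 was assigned by its midpoint to fixed 1-Mb bins that start at the first base of each chromosome, and a bin was a hotspot if it held 24 or more regions. The hotspots were thus chosen by the count of regions itself. This rule gave 69 hotspot bins with 1868 regions, out of 2897 bins with 22668 regions and out of 23612 regions in the whole list. The 69 bins are 2.38% of all bins and hold 8.24% of the regions on these chromosomes, shares that the rule sets and from which nothing is read.

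The regions come from ATAC-seq, an assay in which the Tn5 transposase cuts open DNA and inserts sequencing adapters, on GM12878, an established line of B lymphocytes immortalised with Epstein-Barr virus. Cells of 2 untreated cultures were taken during exponential growth, 50000 from each, and both form 1 group. The authors deposited a single list for both cultures, in the hg19 build, with a start, an end and a score per region. The name of the list points to filters for reproducibility (IDR), mappability, mitochondrial sequence and blacklisted stretches. Counts below are thus of regions that passed such filters. The list has no values per culture and no read counts, so the depth is unknown. No difference could be tested over replicates, and all comparisons below are descriptions. The line is a single transformed line, so the values describe it and not B cells at large.

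Open chromatin marks promoters, enhancers and other sites where nucleosomes have given way to bound proteins. Genes that define a cell type are known to be surrounded by many such sites, sometimes strung out over long stretches of DNA. Gene-rich stretches also carry many open promoters, so a crowded megabase can hold either kind of site. The list names no genes and does not separate promoters from more distant sites. Genes are named below only because they are known to lie in a band, and they were singled out with the hotspots in view. A band can span several bins, so a named gene may lie outside the hotspot bin or away from its densest part. No region was assigned to a gene, and the names show no theme among the hotspots.

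Each count from 1 to 8 regions was found in 154 to 181 bins. Higher counts were rarer, with no break at the threshold and uneven numbers of bins beyond it. The median over all bins was 7 regions, with quartiles at 3 and 12, and 383 bins held none, unsequenced stretches included. All bins from 29 to 33 Mb on chromosome 6 were among the empty ones. Whether filters of the list emptied bins was not tested. The hotspots had a median of 26 regions and at most 39. Only 12 held 30 or more, while 29 held 24 or 25. Just inside the threshold were 15 bins with 24 regions, and just outside it were 16 bins with 23 and 18 bins with 22. The bins with 23 lay in 2p24.3, 3p25.1, 3q26.2, 4p14, 4q26, 4q35.1, 5q31.3, 6p22.3, 6q15, 6q25.3, 10q21.3, 12q13.11, 14q11.2, 16p11.2, 16q22.1 and 18q21.33, the last of them the band known to hold BCL2, a gene of B-cell survival. Those with 22 included bins on chromosomes 15 and 19, which have no hotspot, in 15q21.2 and 19q13.43. The threshold therefore separates no distinct class of bins.

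**Figure D1:**
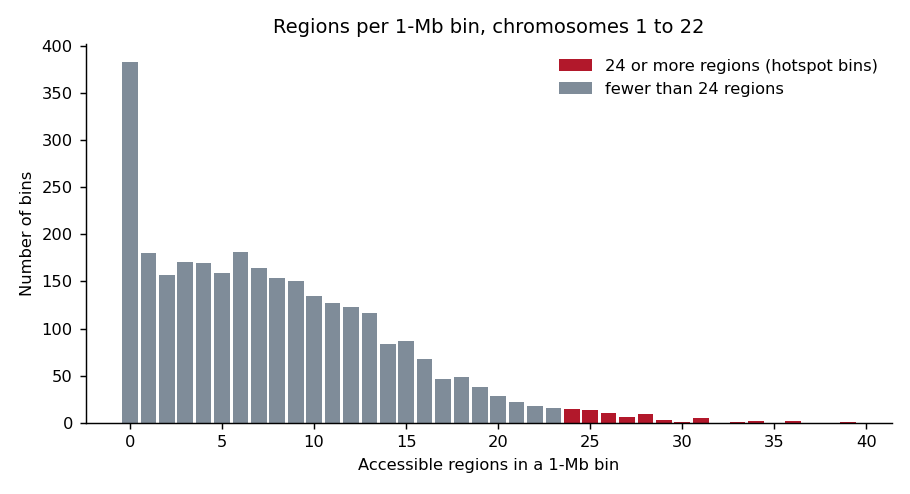
Number of 1-Mb bins on chromosomes 1 to 22 (vertical axis) by the number of accessible regions in the bin (horizontal axis), with the 69 hotspot bins in red and the other bins in grey. The counts run without a break from 23 regions (16 bins) to 24 regions (15 bins), and the fullest bin held 39.

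The fullest hotspot lay in 6p12.2 and 6p12.1 (chr6:52000001-53000000). It held 39 regions that covered 3.50% of the bin, with a median gap of 10.3 kb from the end of a region to the start of the next. Its median width was 803 bp, and 23 of the 39 regions (59.0%, exact binomial interval 42.1 to 74.4%) carried the highest score of the list, 1000. In the whole list 14180 of 23612 regions (60.05%) share this score, so it is a ceiling and ranks none of them above the others. Regions of this hotspot were found in 9 of the 10 stretches of 100 kb, and no 100 kb held more than 8. Band 6p12.2 is known to hold MCM3, a subunit of the replicative helicase, IL17A, which encodes a T-cell cytokine, and the GSTA genes for glutathione transferases.

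A count of 36 was reached in 5q33.1 and in 14q21.3 and 14q22.1. The hotspot in 5q33.1 (chr5:150000001-151000000) was uneven, with 13 regions within 100 kb, only 6 of 10 stretches of 100 kb occupied and a gap of 269.1 kb. Its median gap was 8.41 kb, its median width 747.5 bp, and 52.8% of its regions (19 of 36) were at the highest score. The band is known to hold TNIP1, which restrains NF-kB signalling, and the annexin gene ANXA6. The hotspot across 14q21.3 and 14q22.1 (chr14:50000001-51000000) had all 10 stretches occupied and at most 9 regions in 100 kb, at a median gap of 10.5 kb. It was not evenly spread either, with a longest gap of 157.2 kb. Its regions were wide, at a median of 1007 bp, and 29 of 36 (80.6%, 64.0 to 91.8%) were at the highest score. It had the largest covered share of all hotspots, 3.95% of the bin. These bands are known to hold SOS2, an activator of Ras, ARF6, a small GTPase of membrane traffic, and the kinase gene MAP4K5.

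Hotspots of 34 regions lay in 4q31.21 and 4q31.22 (chr4:146000001-147000000) and in 5p15.2 (chr5:14000001-15000000). Both had 22 regions (64.7%) at the highest score and regions in 9 of 10 stretches of 100 kb, and their median gaps were 10.1 and 12.2 kb. Median widths were 746.5 and 853.5 bp, and the densest 100 kb held 8 and 10 regions. Band 4q31.21 is known to hold SMAD1, a transducer of bone morphogenetic protein signals. Band 5p15.2 is known to hold OTULIN, an enzyme that removes linear ubiquitin chains. The hotspot in 5p15.2 stood alone: the megabase before it held 0 regions and the one after it 2. The sixth fullest lay in 12q13.2 and 12q13.3 (chr12:56000001-57000000), with 33 regions, a median gap of 20.2 kb, a median width of 899 bp and 69.7% of regions at the highest score. At most 9 of them lay within 100 kb. It was followed by a further hotspot of 24 regions in 12q13.3 (chr12:57000001-58000000), the only pair of adjacent hotspots. These bands are known to hold genes of cytokine signalling, among them STAT2, STAT6 and IL23A, and IKZF4 of the Ikaros family.

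The remaining hotspots are given here by band. Counts of 31 were found in 2p11.2, 2q37.1, 3q12.3, 4q35.1 and 8q21.13, and a count of 30 in 6q24.1. Counts of 29 were found in 10p14, in 10q25.2 and across 14q11.2 and 14q12. The 9 bins with 28 regions lay in 2p14, 5q23.1, 5q31.3, 6p22.2, 8p23.1, 8q22.3, 8q24.12, 11q22.2 and 13q32.2, named by the band with most of their regions (13q32.3 held as many as 13q32.2). The 6 with 27 lay in 1p21.2, 3p24.3, 6q22.1, 6q24.2, 12q22 and 13q34. The 10 with 26 lay in 1q42.12, 3q11.2, 4p15.2, 4p14, 5p15.2, 8q12.2, 11p13, 11q21, 13q33.1 and 21q21.3. The 14 with 25 lay in 2p24.1, 2q33.1, 3q25.31, 4q13.3, 4q27, 5q23.2, 5q31.3, 6q25.3, 7q36.1, 8p11.22, 8p11.21, 10q24.1, 11q24.3 and 18q23. The 15 with 24 lay in 1p22.3, 1q31.2, 2p13.1, 3q13.33, 5q15, 5q31.1, 5q33.3, 6q15, 7p13, 8q24.13, 8q24.21, 9p24.1, 9p13.2, 12p11.21 and 12q13.3.

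Several of these bands are known to hold genes of transcription factors that act in B cells, some of them in many other cells too. They were picked from the hotspots. Bands of other B-cell factors, such as those of IRF4, IKZF1 and BCL6, hold no hotspot. The hotspot in 9p13.2 (chr9:37000001-38000000), the band of PAX5, which maintains B-cell identity, held 24 regions of median width 1072 bp, 79.2% of them at the highest score. The megabase before it held 9 regions, and the distance of the hotspot regions from PAX5 was not determined. The hotspot in 11q24.3 (chr11:128000001-129000000), the band of the ETS factors ETS1 and FLI1, held 25 regions, with 0 in the megabase before it and 6 in the one after. In 6q15, the band of BACH2, a repressor of plasma cell differentiation, the hotspot (chr6:90000001-91000000) held 24 regions with a median gap of 11.3 kb, and 50.0% were at the highest score. In 8q24.21, the band of MYC, which drives growth, the hotspot (chr8:128000001-129000000) held 24 regions with 62.5% at the highest score and neighbours of 2 and 16. The hotspots in 9p13.2 and 6q15 had the same count but differed in width, at 1072 against 737.5 bp, and in score.

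Bands of NF-kB, interferon and antigen-receptor signalling also appear. The hotspot in 3q12.3 (chr3:101000001-102000000), the band of the NF-kB cofactor NFKBIZ, held 31 regions with 71.0% at the highest score. The hotspot in 11q22.2 (chr11:102000001-103000000), the band of the apoptosis inhibitors BIRC2 and BIRC3, held 28 regions with a median width of 694 bp. In 1p22.3, the band of BCL10, an adaptor between antigen receptors and NF-kB, 9 of the 24 regions formed a single cluster (chr1:85424922-85463800). The distance of this cluster from BCL10 was not determined. The hotspot in 8p11.21, the band of the kinase gene IKBKB, held 25 regions with 68% at the highest score. In 4q35.1, the band of the interferon regulatory factor gene IRF2, the hotspot (chr4:185000001-186000000) held 31 regions of median width 986 bp, with 77.4% at the highest score. The next megabase held 23 regions, 1 short of the threshold. In 2q37.1, the band of the nuclear body genes SP100, SP110 and SP140, the hotspot held 31 regions but only 51.6% were at the highest score. In 8p23.1, the band of the B-cell kinase gene BLK, 13 of 28 regions fell within 100 kb. In 10q24.1, the band of BLNK, the adaptor of the B-cell receptor, the hotspot (chr10:97000001-98000000) held 25 regions with the longest median gap of all hotspots, 31.2 kb. Their median width was 835 bp, 64% were at the highest score, and at most 8 lay within 100 kb.

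Receptors that guide and activate lymphocytes are known in further bands. The hotspot in 13q32.2 and 13q32.3 (chr13:99000001-100000000), bands that include GPR183, a receptor that positions B cells in follicles, held 28 regions. Within 100 kb lay 12 of them (midpoints from 99128842 to 99228738), and their distance from GPR183 was not determined. The hotspot in 1q31.2 (chr1:192000001-193000000), the band of RGS1, RGS2 and RGS13, which damp signals of chemokine and related receptors, held 24 regions. Of these, 13 lay within 100 kb and 10 formed a single cluster. The hotspot in 3q13.33, the band of the costimulatory ligand CD80, held 24 regions with a median width of 1086 bp and 79.2% at the highest score. Band 1p21.2, known for the lymphocyte egress receptor S1PR1, had 27 regions, and band 11p13, known for the adhesion receptor CD44, had 26.

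Other hotspots lie in bands known for genes of every cell or for gene families. In 6p22.2, which is known for a cluster of replication-dependent histone genes and for butyrophilin genes, the hotspot (chr6:26000001-27000000) held 28 regions. They had the largest median width of the 69 hotspots, 1094 bp, with 60.7% at the highest score and a median gap of 14.7 kb. A pair of them lay 9 bp apart, the shortest gap in any hotspot. In 7q36.1, the band of the histone methyltransferase EZH2, the hotspot (chr7:148000001-149000000) held 25 regions with 80% at the highest score, but they stood apart. Only 12.5% of its gaps were 12.5 kb or shorter, the lowest share of all hotspots. In the same bin, 19 of its regions had no neighbour within that distance. In 5q31.3 (chr5:140000001-141000000), known for the protocadherin gene clusters, 25 regions lay in only 5 of 10 stretches of 100 kb. The stretch chr5:140106028-140699728 held none, and its 593.7 kb were the longest gap in any hotspot. In 2p11.2 (chr2:85000001-86000000), known for the actin-binding genes TMSB10 and CAPG, 31 regions had the shortest median gap of all hotspots, 6.04 kb. Their median width was 756 bp, and 61.3% were at the highest score. The same band holds the immunoglobulin kappa locus, which lies in other bins.

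**Figure D2:**
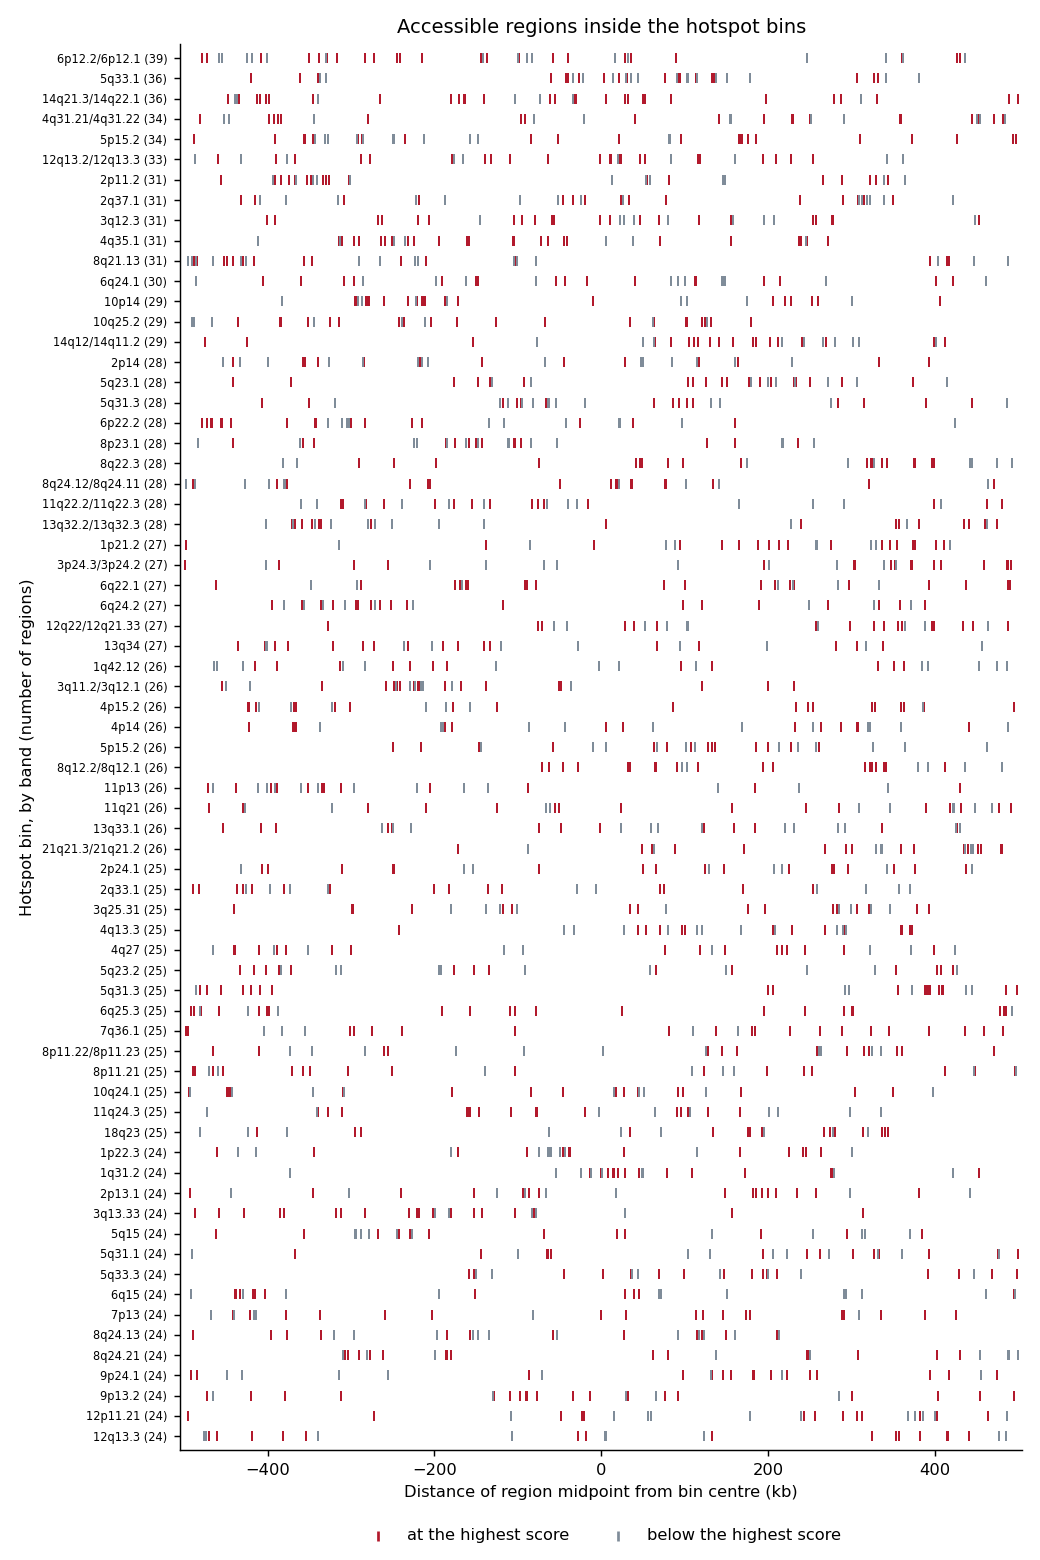
Each row is 1 of the 69 hotspot bins, labelled by band with its number of regions and ordered by that number. Each tick is the midpoint of a region by its distance from the bin centre in kb, in red at the highest score and in grey below it. Regions of the hotspot in 2p11.2 pile up left of the centre, while those of 13q34 and 14q21.3 occupy all 10 stretches of 100 kb.

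Regions inside hotspots were close but not evenly spaced. The median gap within hotspot bins was 15.9 kb (interval of the median from binomial order statistics, 14.53 to 16.98 kb), against 38.8 kb in the other bins, a difference that follows from the rule. Across the hotspots the median gap ran from 6.04 kb in 2p11.2 to 31.2 kb in 10q24.1, and the longest gap in a bin from 96.15 to 593.7 kb. Of the 1799 gaps, 45.0% were at most 12.5 kb, against 26.5% of the gaps in the other bins. Joining regions over such gaps within a bin gave 47 clusters of 5 or more regions in 36 of the 69 hotspots. They held 297 regions, or 15.9% of all hotspot regions, whereas 638 regions (34.2%) had no neighbour within 12.5 kb in the same bin. These shares were not computed over the other bins, so neither is read as a trait of hotspots. The other 33 hotspots had no cluster of 5, so high counts were reached with and without clusters.

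How strongly a hotspot was concentrated differed widely. The share of a bin's regions in its densest 100 kb ran from 19.2% to 57.7%, with a median of 33.3%. The highest share was in 3q11.2 and 3q12.1 (chr3:98000001-99000000), where 15 of 26 regions lay within 100 kb and 12 formed a cluster (chr3:98240740-98287164). In this hotspot 16 of the 26 regions lay in a Giemsa band classed as variable, its median width was 796.5 bp, and 65.4% were at the highest score. In 2p11.2, 16 of 31 regions lay within 100 kb and 14 formed the largest cluster in any hotspot (chr2:85106552-85174082), 10 of them at the highest score. At the other end, the hotspot in 1q42.12 (chr1:226000001-227000000), known for the DNA repair gene PARP1, had at most 5 regions in 100 kb and no cluster larger than 2, at a median gap of 21.6 kb and a median width of 723 bp. The hotspot in 13q33.1 also had at most 5 of 26 within 100 kb. The hotspot in 1q42.12 had the lowest share at the highest score of all 69, 46.2% (12 of 26, 26.6 to 66.6%). All 10 stretches of 100 kb were occupied in 9 hotspots, and only 5 or 6 in 6 hotspots.

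Width and score were not used by the rule, and both were slightly higher in hotspots than elsewhere. The median width was 800 bp in hotspots (interval 772 to 830 bp, 1868 regions) and 753 bp in the other bins (747 to 759 bp, 20800 regions). The highest score was carried by 62.9% of hotspot regions (1175 of 1868, exact binomial interval 60.7 to 65.1%) and by 59.6% of the others (59.0 to 60.3%). The intervals cover counting error only and treat neighbouring regions as independent, and no test was possible. At the highest score the median widths were 1005 and 951 bp, and below it 573 and 554 bp, so hotspot regions were wider in both classes. In bins with 22 or 23 regions, the medians were 1006 bp at the highest score and 559 bp below it. The width at the highest score was therefore not particular to hotspots.

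The change with crowding was steepest among sparse bins. Median width was 666 bp in bins with 1 to 5 regions, 748 bp with 6 to 11, 774 bp with 12 to 17 and 787 bp with 18 to 23. The share at the highest score was 53.95%, 59.1%, 61.3% and 61.1% in the same classes. In the bins with 22 or 23 regions, just outside the threshold, the median width was 773 bp and the share 57.5% (53.9 to 61%). The width rose in order through the classes, but the share did not. Hotspots overlapped with bins of 18 to 23 regions within these intervals, for width (770 to 801 bp) and for the share (59.5 to 62.8%). Regions of 2 kb or more made up 4.18% of hotspot regions (78 regions, 3.31 to 5.18%) and 3.21% of the others (2.98 to 3.46%). They made up 3.95% (3.52 to 4.42%) in bins with 12 to 17 regions and 3.60% (3.00 to 4.28%) with 18 to 23. Both intervals overlapped that of the hotspots.

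Single hotspots ranged widely on both sides of the rest, with the wide intervals that 24 to 39 regions give. Their median widths ran from 641.5 bp across 8q24.11 and 8q24.12 (chr8:119000001-120000000), where the median gap was 8.51 kb and 64.3% were at the highest score, to 1094 bp in 6p22.2, and 46 of 69 lay above the value of the other bins. The share at the highest score ran from 46.2% to 84.0%, and 45 of 69 lay above that of the other bins. The highest share was in 6q25.3 (chr6:157000001-158000000), the band of ARID1B, a subunit of a chromatin remodeller, with 21 of 25 regions (63.9 to 95.5%), and its interval still overlapped that of 1q42.12. Its median gap was 11.3 kb and its median width 799 bp. It is the only hotspot in which the authors' numbering of regions skips numbers, 3 in all. Over the 69 hotspots, median width and the share at the highest score went together (Spearman rho 0.424, 69 bins), as a description of bins that share 1 list and a score that itself goes with width. The count of regions went with neither the share (rho -0.0015) nor the median width (rho -0.083).

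**Figure D3:**
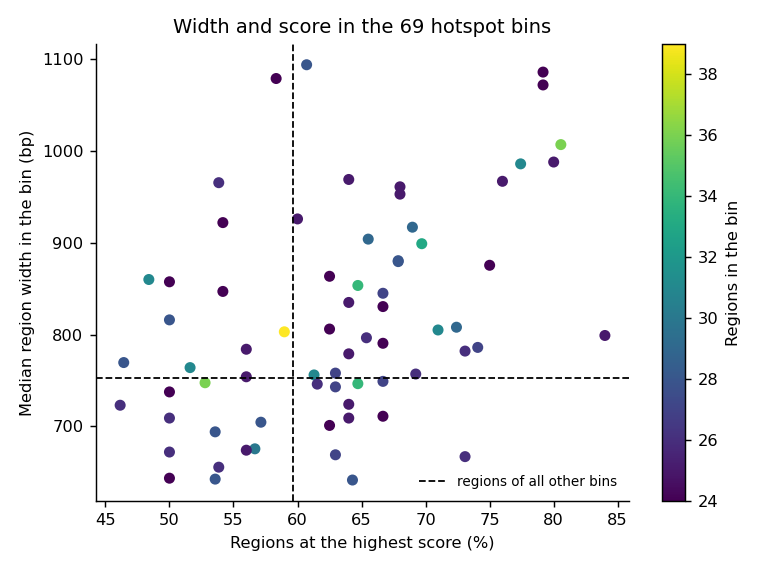
Each point is 1 of the 69 hotspot bins, with the share of its regions at the highest score in percent (horizontal axis), the median width of its regions in bp (vertical axis) and colour for the number of regions. Dashed lines mark the regions of all other bins, 59.6% and 753 bp, and the hotspots lie on both sides of each line.

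The widest hotspot region, at 5301 bp, lay in 21q21.3 (chr21:26948981-26954281) at the highest score. Its hotspot (chr21:26000001-27000000) held 26 regions with a median gap of 6.43 kb, and 8 of them formed a cluster (chr21:26933843-26956105). The megabase before it held 1 region. MIR155HG, from which the B-cell microRNA miR-155 is made, is known to lie in this band. The next widest were 4575 bp in 13q34 (chr13:111364394-111368968) and 4409 bp in 6q24.2 (chr6:143264913-143269321). All 12 of the widest hotspot regions carried the highest score. Of these 12, 5 lay in hotspots with no cluster of 5 regions, those in 13q34, 6q24.2, 8p11.21, 5q23.2 and 4p15.2. Band 4p15.2 is known to hold RBPJ, the nuclear effector of Notch signalling, through which proteins of Epstein-Barr virus also act.

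The megabases beside hotspots were far less crowded. The 138 neighbours of hotspots had a median of 9 regions and ran from 0 to 33, against a median of 7 over all bins and 26 in the hotspots. A bin between 2 hotspots counts for each, and 2 neighbours are themselves hotspots, 1 of them with the 33 regions. Bins beside those with 12 to 17 and with 18 to 23 regions also had a median of 9, and bins beside those with 6 to 11 a median of 8. Of the 138 neighbours, 7 (5.07%) held no region, and only 18 held 18 or more. In 6 hotspots both neighbours held 5 regions or fewer, among them 5p15.2, with 0 and 2, and 18q23, with 0 and 1. Across all 2875 pairs of adjacent bins the counts were weakly related, with Pearson's r of 0.282 and Spearman's rho of 0.363. Empty bins, unsequenced stretches among them, take part in this, and over the 2332 pairs in which both bins held a region r was 0.151.

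**Figure D4:**
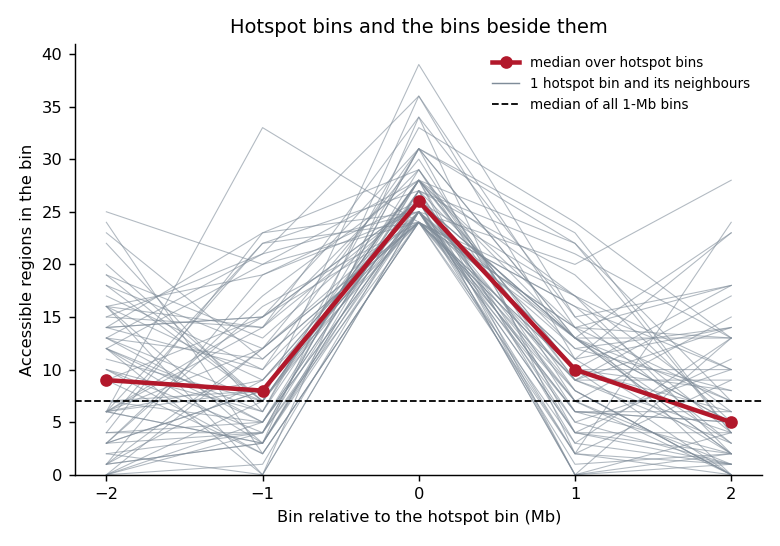
Number of accessible regions (vertical axis) in each hotspot bin and in the bins 1 and 2 Mb to either side (horizontal axis), with a grey line for each of the 69 hotspots and their median in red. The medians are 9, 8, 26, 10 and 5 from left to right, and the dashed line marks the median of all 1-Mb bins, 7.

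Which regions are members depended on where the bins begin. With bins that begin 500 kb into each chromosome, 61 bins reached the threshold and held 1668 regions. Only 687 regions belonged to both sets, which is 36.8% of the hotspot regions and 41.2% of those in the shifted bins. No region of 36 of the 69 hotspots fell in a shifted hotspot. When the megabase could begin anywhere, the densest on chromosome 10 held 42 regions (midpoints from 111641030 to 112631548), the densest on chromosome 5 held 41, and the densest on chromosome 8 held 40. These exceed the 39 of the fullest fixed bin, which moving the bin did not raise.

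Hotspots were missing from several chromosomes. They were found on 16 of 22 chromosomes, with 10 on chromosome 5, 9 on chromosome 8 and 7 on chromosome 6, and none on chromosomes 15, 16, 17, 19, 20 and 22. Per bin, hotspots made up 6.12% on chromosome 8 and 5.53% on chromosome 5. Chromosomes 17, 19 and 22 are known for high gene density. Chromosome 19 had a mean of 8.72 regions per bin, the same as chromosome 2, which had 6 hotspots, but its fullest bin held 22. The fullest bin on chromosome 16 held 23, on chromosome 15 22, on chromosomes 17 and 20 21, and on chromosome 22 13. With a megabase that could begin anywhere, chromosomes 19 and 16 did reach the threshold, with up to 28 and 26 regions, and chromosomes 15, 17, 20 and 22 did not. Chromosome 13, known to be poor in genes, had a mean of 6.25 and 3 hotspots. The short chromosomes have few bins (60 on chromosome 19 and 52 on chromosome 22), and no test of the difference between chromosomes was made.

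**Figure D5:**
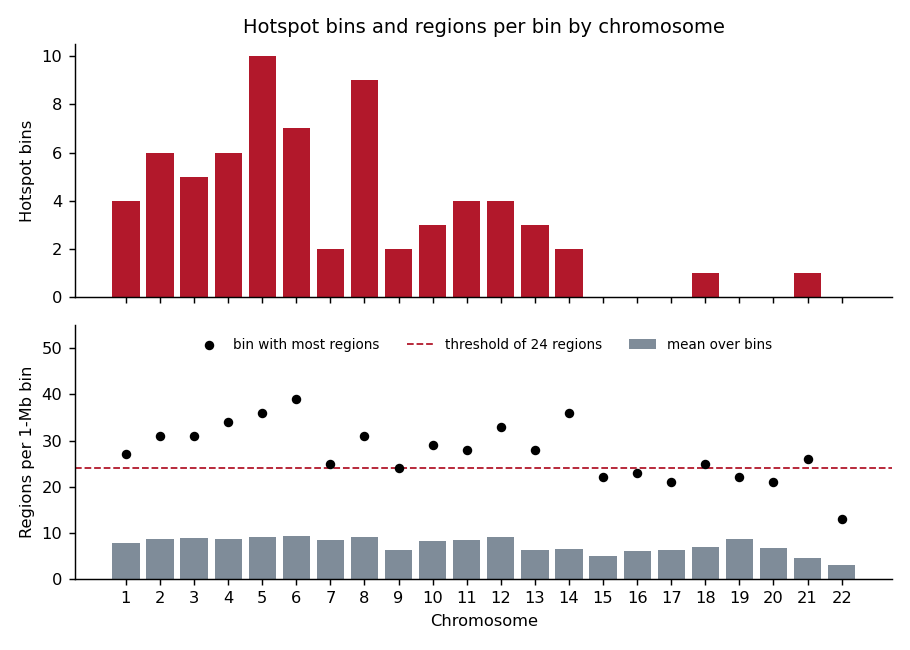
Number of hotspot bins (upper panel) and regions per 1-Mb bin (lower panel) for chromosomes 1 to 22, where bars give the mean over bins, points the fullest bin and the dashed line the threshold of 24 regions. Chromosomes 5 and 8 have 10 and 9 hotspots, and the fullest bins of chromosomes 15, 16, 17, 19, 20 and 22 lie between 13 and 23.

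Giemsa bands describe the setting of hotspots on the chromosomes, light bands being known as the gene-rich ones. Light bands held 64.3% of hotspot regions (62.1 to 66.5%) and 52.9% of the others (52.3 to 53.6%). The share was 37.51%, 51.82%, 54.26% and 63.83% in bins with 1 to 5, 6 to 11, 12 to 17 and 18 to 23 regions. The interval for 18 to 23 regions, 62.19 to 65.45%, overlapped that of the hotspots. Bins with 22 or 23 regions had a share of 68.98% (65.56 to 72.25%). A high share in light bands was therefore not particular to hotspots. By length, light bands made up 66.1% of the hotspot bins and 42.4% of the chromosomes. In 39 hotspots all regions lay in light bands, in 16 none did, and 14 spanned both kinds. Within hotspots the density was 26.3 regions per Mb in light bands and 28.8 in the darkest, in bins that all passed the same threshold. The hotspots in 5q23.1 (chr5:118000001-119000000) and 13q33.1 (chr13:103000001-104000000) lay wholly in the darkest bands, with 28 and 26 regions. Their neighbours held 3 and 3 regions, and 3 and 0. Band 5q23.1 is known to hold TNFAIP8, an NF-kB-induced gene, and band 13q33.1 the DNA repair gene ERCC5. Only 2 hotspots began or ended within 5 Mb of a chromosome end.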

How the data were processed

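ATAC-seq libraries were made from 2 GM12878 cultures in 1 group. The authors deposited 1 headerless list of regions for both, with a score per region; no label or header names its scale. The submitters' processing notes name MACS2 2.1.0, bedtools 2.24.0, BWA 0.7.13, SAMtools 0.1.19, CASAVA 1.8.4, Picard 1.92, Trim Galore 0.3.3 and the build hg19, without roles. The list holds no read counts, so its depth is unknown, and whether reads were shifted for the Tn5 cut was not stated. Starts, counted from 0 as in the BED format, are printed from 1.

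Regions were binned with Python 3.11.15, numpy 2.4.6, pandas 2.3.3 and scipy 1.17.1 and plotted with matplotlib 3.10.9. Functions were tested on simulated data. Bands and sequence lengths of hg19 came from circlize 0.4.16. Gaps run from end to start within a bin. Intervals at 95% are exact Clopper-Pearson for shares and from binomial order statistics for medians, and cover counting error only. No test was made. All hotspots are named, with full values for the 6 fullest and for extremes of spacing, width, score and concentration. Members, rule and gene names were chosen with earlier results of these data known. The gene and promoter tables at hand are of GRCh38.p14, so their coordinates and sequences were not used.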

Additional observations from a re-analysis of the deposited data

Results flagged for a closer look

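Sequences outside the chromosomes compared above, which have no control samples, carried regions at high density. The unplaced sequence Un_gl000225, of 211173 bp, held 44 regions, or 208 per Mb, more than any hotspot bin. It is far shorter than a bin, and shorter stretches of hotspots were denser too, with up to 16 regions within 100 kb. How reads map to such sequences was not tested. The sequence 9_gl000199_random held 35 regions in 169874 bp, and Un_gl000216 held 23 in 172294 bp. The shares at the highest score were 81.8%, 74.3% and 78.3%.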

How the results depend on the processing

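No paired analysis was possible because both cultures form 1 group and share a single list of regions. For the same reason neither culture could be omitted in turn. Of 33 alternatives over 6 results, 19 left the result within its limits (a factor of 1.5 for counts, the 95% interval for medians and shares) and 14 moved it. Assigning regions by their start changed neither count. The number of hotspots and of their regions became 153 and 3654 at a threshold of 20, and 24 and 736 at 28. Bins of 500 kb with 12 or more regions gave 312 and 4548, and bins of 2 Mb with 48 or more gave 7 and 357. Only 2 bins held 24 or more regions at the highest score, in 14q21.3 (29) and 4q35.1 (24). With 15 or more such regions, an alternative chosen after seeing the data, 80 bins passed, 53 of them hotspots. The median gap became 17.9 kb at a threshold of 20, 11.7 kb at 28 and 24.1 kb for regions at the highest score, whose median width was 1005 bp. The share in light bands was 56.25% at 28. Leaving out the fullest bin moved none of the spacing, width, score and light-band values past these limits. The depth and the effect of the filters are unknown, so a bin with few regions is not read as closed chromatin.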

Other observations

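Chromosome X, which the rule leaves out, held 776 regions, and 0 of its 156 bins reached 24 regions. Its fullest bin held 19. Its regions had a median width of 750.5 bp, and 61.5% were at the highest score.

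The relation between neighbouring bins was also computed at other bin sizes, as a description over all pairs of chromosomes 1 to 22. Pearson's r between adjacent bins was 0.313 for bins of 100 kb, 0.342 for 250 kb, 0.319 for 500 kb and 0.248 for 2000 kb (1430 pairs). Empty bins were included at each size.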
